A study of Mus musculus with 8 samples.

Results

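The Tob and Btg genes encode a family of antiproliferative proteins, and the genes described here are Tob1, Tob2, Btg1, Btg2, Btg3 and Btg4 together with Cnot7 and Cnot8, which encode the deadenylases that these proteins bind. All noncontrol probes bearing one of these 8 gene names were taken, which gave 9 of the 55681 noncontrol probes on the array. Of these, 8 probes passed the filter on dim signal, so that 7 of the 8 genes were among the 23828 genes tested. The 8 genes were chosen by function with the measured genotype difference of Tob1 in view, that of its log2 signal between miR-126-/- and miR-126+/+ arteries, so every genotype difference of theirs below is a description of these mice and supports nothing by itself.

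The arteries came from 4 miR-126-/-/ApoE-/- mice and 4 miR-126+/+/ApoE-/- mice, each mouse on an array of its own. All mice were female, 6 weeks of age per the labels, of mixed genetic background and on a western-type diet, and their carotid arteries were collected 14 days after wire injury. Both genotypes lack apolipoprotein E, which raises plasma cholesterol, and the miR-126-/- mice also lack miR-126, a microRNA of endothelial cells whose sequence lies in an intron of Egfl7. Wire injury strips the endothelium, after which a neointima grows, so the comparison asks how loss of the microRNA alters transcripts while that layer forms.

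Tob and Btg proteins share a conserved domain through which they bind Cnot7 and Cnot8. These are among the catalytic subunits of the CCR4-NOT complex, which shortens the poly(A) tail of messenger RNA. Tob proteins also bind cytoplasmic poly(A)-binding protein and so bring the complex to messages, which are then degraded. The family is known for slowing entry into the cell cycle and for keeping lymphocytes quiescent.

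A mature sequence of the microRNA that separates the genotypes and the probe on which the Tob1 values rest are shown first. Other mature products of that microRNA's locus, which the knockout may also remove, are not shown. The microRNA sequence is RefSeq's (GRCm38.p6, chr2:26591402-26591423, plus strand), with the seed, bases 2 to 8, in capitals. The Tob1 probe lies at chr11:94075956-94076015 on the plus strand of mm9, per the file headers. Positions of microRNA target sites in the 8 genes were not analysed here.
miR-126a-3p: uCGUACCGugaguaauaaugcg
Tob1 probe: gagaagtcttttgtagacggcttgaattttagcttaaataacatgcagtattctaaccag

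The promoters of Tob1 and Btg2 follow, because Tob1 was the gene with the most separated values and Btg2 was set against immediate early genes across mice. Each runs from 250 bases before to 50 bases after the RefSeq start (GRCm38.p6; Tob1 at chr11:94211204-94211503, plus strand; Btg2 at chr1:134079106-134079405, minus strand). Capitals mark a TATA box (TATAAA) in the Tob1 promoter and a cyclic AMP response element (CRE, TGACGTCA) in the Btg2 promoter.
Tob1 promoter: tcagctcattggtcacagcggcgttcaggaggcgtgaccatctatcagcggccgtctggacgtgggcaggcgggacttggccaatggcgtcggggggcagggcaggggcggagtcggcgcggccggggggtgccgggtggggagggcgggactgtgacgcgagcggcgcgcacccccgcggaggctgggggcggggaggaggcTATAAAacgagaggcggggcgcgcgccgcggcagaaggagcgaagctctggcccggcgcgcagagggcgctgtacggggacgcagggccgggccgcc
Btg2 promoter: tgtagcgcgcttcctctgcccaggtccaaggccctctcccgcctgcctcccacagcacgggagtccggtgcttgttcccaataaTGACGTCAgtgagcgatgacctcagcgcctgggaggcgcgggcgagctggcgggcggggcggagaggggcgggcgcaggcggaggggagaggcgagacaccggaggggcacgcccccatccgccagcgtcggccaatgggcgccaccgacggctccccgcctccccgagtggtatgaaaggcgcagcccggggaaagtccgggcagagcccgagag

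Motifs were searched on both strands. The CRE of the Btg2 promoter starts 166 bases before the start site, at position -166, and 1.79% of the 32851 mouse promoters of this length hold these letters. The TATAAA of the Tob1 promoter is at -47, and 13.62% of promoters hold one. The Btg1 promoter, not shown, holds TATAAA at -26 and the FoxO motif GTAAACA at -204, which 3.65% of promoters hold. The GC box GGGCGG, in 35.66% of promoters, occurs 3 times in the Tob1 promoter, 3 times in that of Btg2 (the first pair sharing a base), 2 times in that of Btg1 and 2 times in that of Tob2. The AP-1 motif TGANTCA (7.81% of promoters) and the CArG box (1.63%) are in none of these 4 windows. GC content was 75.3% in the Tob1 promoter, 58.0% in that of Tob2, 64.7% in that of Btg1 and 72.0% in that of Btg2, against a median of 52.7% over all promoters. A match or its absence describes these letters only.

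All levels below are on a log2 scale whose 0 is the 75th percentile of each array's own signal, so that 0 is the level of a fairly bright spot, and no probe's level is set against another's. That percentile lay between 672.0 and 850.3 intensity units on miR-126-/- arrays, against 619.7 to 864.6 on miR-126+/+ arrays. Between 55.9% and 61.5% of probes were well above background, 0 spots were saturated, and correlations between arrays over all probes ran from 0.972 to 0.984. Array miR-126+/+ 3 had both the lowest percentile (619.7) and the lowest share of probes well above background (55.9%). Bright spots that fell short of the other arrays by 2 log2 units numbered 43 there and 122 on miR-126-/- 4. Whether the extreme values of miR-126+/+ 3 described below follow from its weaker signal was not tested. The 8 arrays shared a slide and a scan, with the miR-126-/- arrays in slide row 2 and the miR-126+/+ arrays in slide row 1, and an effect of that row cannot be told apart from one of genotype. A local dim area on array miR-126-/- 4 held 0 of the spots of the 8 genes. Precision is limited by the number of arrays, and in whole arteries fewer cells of a type and less RNA per cell cannot be told apart. Over all genes, 27 of 23828 (0.113%) had a limma adjusted p under 0.05, 13 higher (0.0546%) and 14 lower (0.0588%) in miR-126-/- arteries.

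Tob1, which slows entry into S phase and links CCR4-NOT to poly(A)-binding protein, was 1.80-fold higher in miR-126-/- arteries. Its level was 0.43, 0.32, 0.37 and 0.37 in the 4 miR-126-/- mice, against -0.48, -0.38, -0.73 and -0.31 in the 4 miR-126+/+ mice. The genotypes did not overlap, and the miR-126-/- arteries were close to each other while miR-126+/+ 3 lay lowest. The mean was 0.37 ± 0.045 against -0.47 ± 0.18 (SD, n = 4 each), a difference of 0.85 ± 0.11 (SE) with a 95% interval from 0.60 to 1.09. Before any scaling the probe read 866.8 to 1136.2 intensity units in miR-126-/- arteries and 374.8 to 697.5 in miR-126+/+ arteries, which do not overlap either. The spread of Tob1 within genotypes (pooled SD 0.132) was at the 21.3 percentile of all genes tested, where the median gene had 0.221, and the size of its difference was at the 95.5 percentile.

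Tob1 was the 1 gene of the 7 with an adjusted p under 0.05 (limma, 0.0483 over all genes tested), where 0.113% of all genes had one. It was also the 1 gene of the 7 whose genotypes did not overlap, where 6.41% of all genes had none (3.85% higher and 2.56% lower in miR-126-/- arteries). Since this contrast was in view when the genes were chosen, nothing is read from either count. When each of the 32481 probes was tested on its own, Tob1 had an adjusted p of 0.0640 and was not among the 13 probes (0.0400%) past the threshold. Over the 22 alternative settings that gave a value for it, its adjusted p was under 0.05 in 6 only and ran from 0.0229 to 0.743. Its difference ran from 0.66 to 0.90 over them, a range that says nothing about the stability of its sign, since groups that do not overlap keep their sign when an array is left out and several settings leave the difference as it is.

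**Figure D1:**
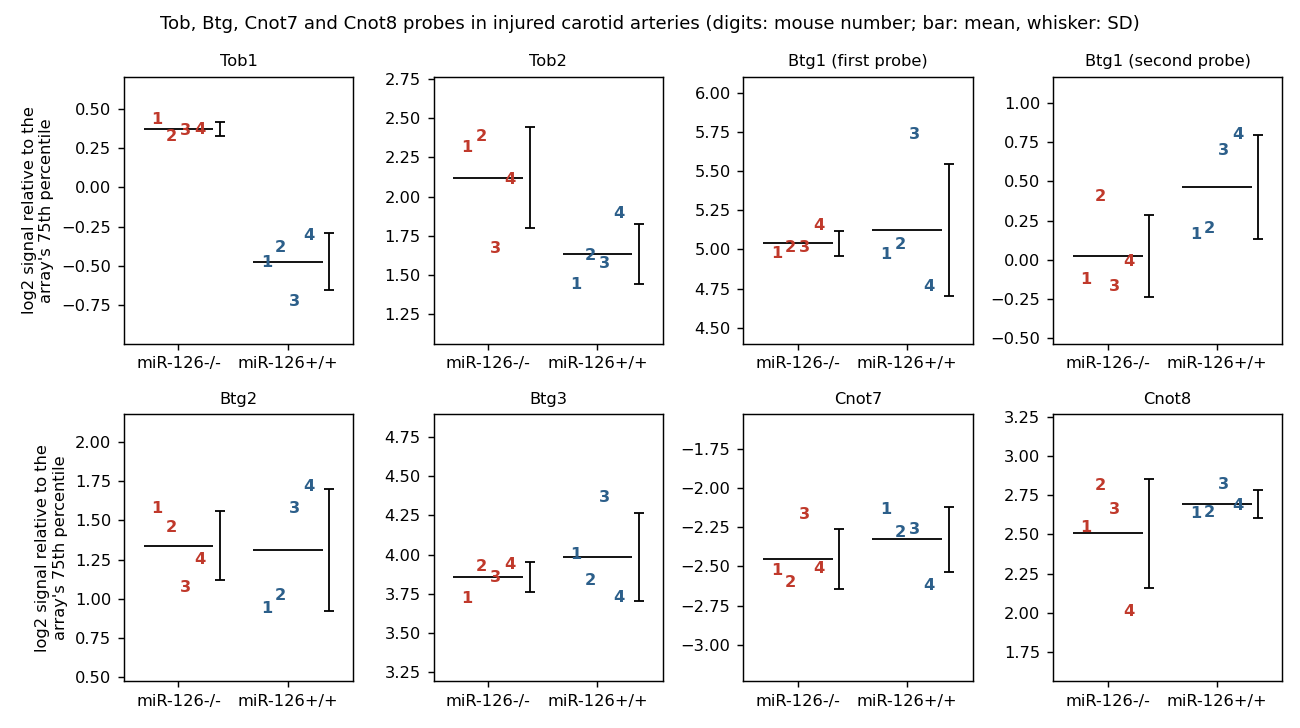
Log2 level (75th percentile of each array at 0) for the 8 probes that passed the filter, in miR-126-/- (left, red) and miR-126+/+ (right, blue) arteries; digits give the mouse number, bars the mean and whiskers the SD, and all panels span the same range of log2 units. Tob1 is the gene whose genotypes do not overlap, while miR-126+/+ 3 stands high for the first Btg1 probe and for Btg3.

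**Figure D2:**
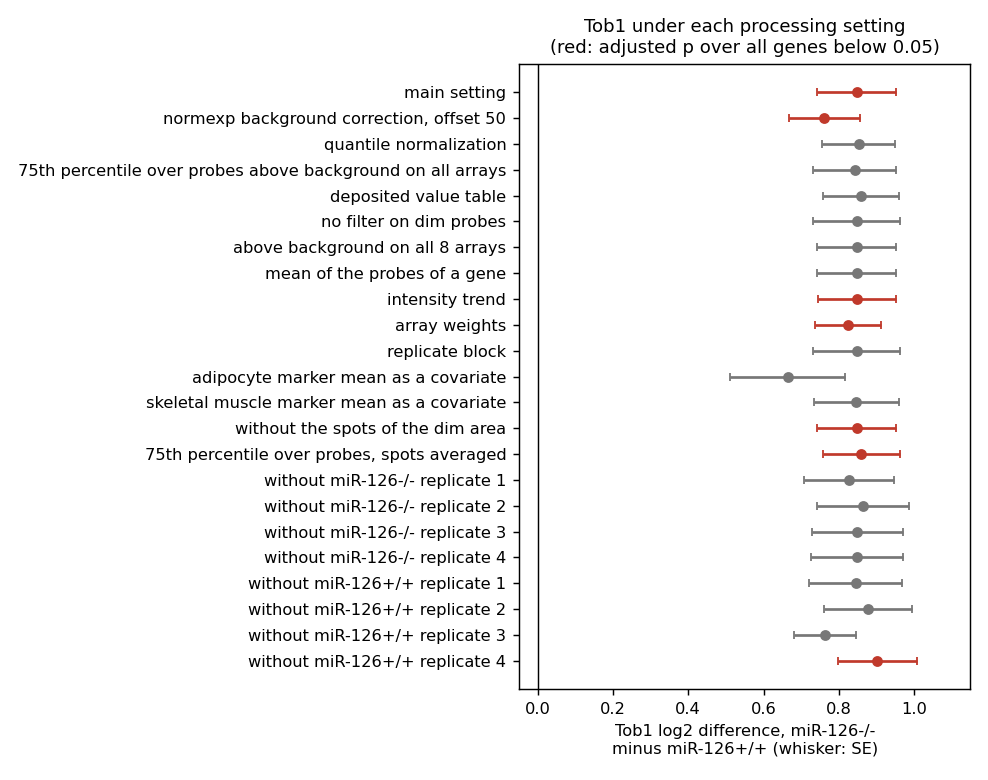
Tob1 difference (log2, miR-126-/- minus miR-126+/+) with its SE as whiskers under the setting of the report (top) and each alternative; red marks an adjusted p under 0.05 over all genes. The difference lies between 0.66 and 0.90 under every alternative shown, while most points are grey.

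Markers of some other cell types also differed on average between the genotypes. All 12 adipocyte markers were higher in miR-126-/- arteries, with a median difference of 1.24, and 0 of the 12 had an adjusted p under 0.05 in limma (10 at an unadjusted p under 0.05). Their mean per array, with each gene centred over the 8 arrays, ran from 0.095 to 0.994 in miR-126-/- mice, against -1.148 to 0.267 in miR-126+/+ mice, and 11 of the 12 were well above background on all 8 arrays. With that mean as a covariate the Tob1 difference was 0.66 ± 0.15 (limma adjusted p = 0.743). All 7 T and B lymphocyte markers were higher too (median 0.88), from -0.258 to 1.411 per array in miR-126-/- arteries and from -0.817 to 0.232 in miR-126+/+ arteries. In limma 0 of the 7 had an adjusted p under 0.05 (2 at an unadjusted p under 0.05). Whether they have a part in the Tob1 difference was not tested. Of these 7 lymphocyte markers 6 were well above background on all 8 arrays. Skeletal muscle markers varied far more within than between genotypes, from -1.789 to 2.994 in miR-126-/- arteries and from -2.245 to 3.475 in miR-126+/+ arteries. With them as a covariate Tob1 differed by 0.85 ± 0.11 (limma adjusted p = 0.0866). Of 8 macrophage markers 2 were higher in miR-126-/- arteries and 6 lower (median -0.19). Fibroblast markers were higher for 3 and lower for 4 of 7 genes (median -0.036). Schwann cell and nerve markers were higher for 5 and lower for 2 of 7 genes (median 0.043).

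The markers that define the artery were present. All 8 contractile smooth muscle markers and all 10 endothelial markers were well above background on every array, with median differences of 0.20 and 0.23. In miR-126-/- arteries 7 smooth muscle markers were higher and 1 lower, and 9 endothelial markers were higher and 1 lower. In limma 0 of the smooth muscle and 0 of the endothelial markers had an adjusted p under 0.05 (1 and 3 at an unadjusted p under 0.05). Egfl7, the host gene of miR-126, was at 6.26 ± 0.18 in miR-126-/- arteries and 5.78 ± 0.17 in miR-126+/+ arteries (SD, n = 4 each). Its difference of 0.48 ± 0.13 (SE) had a limma adjusted p of 0.258. The probe is not known to lie in the disrupted sequence, so it checks nothing about the labels.

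Tob2, the paralog of Tob1 with the same binding partners, was 1.40-fold higher on average, with overlap. Its level was 2.31, 2.39, 1.67 and 2.11 in the 4 miR-126-/- mice, against 1.44, 1.63, 1.57 and 1.89 in the 4 miR-126+/+ mice. Array miR-126-/- 3 lay within the miR-126+/+ range and the other miR-126-/- arrays above it. The mean was 2.12 ± 0.32 against 1.63 ± 0.19 (SD, n = 4 each), a difference of 0.49 ± 0.18 (SE; 95% interval 0.080 to 0.89) at the 88.4 percentile of all genes by size, with a limma adjusted p of 0.398. The difference ran from 0.33 to 0.64 over the alternative settings. The probe lies at chr15:81679488-81679547 on the minus strand of mm9.

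Btg1, known as a translocation partner in B cell leukaemia and as a factor that keeps lymphocytes quiescent, has a pair of probes that gave different pictures. The first probe, at chr10:96082071-96082130 on the plus strand of mm9, was at 4.97, 5.01, 5.01 and 5.16 in miR-126-/- mice, against 4.97, 5.03, 5.73 and 4.77 in miR-126+/+ mice. The miR-126-/- arteries lay within the miR-126+/+ range, which miR-126+/+ 3 and miR-126+/+ 4 set at both ends. The difference was -0.09 ± 0.20 (SE; 95% interval -0.54 to 0.37), and without miR-126+/+ 3 it was 0.12 ± 0.10. The second probe, 3.2 kb further along the same strand, was at -0.12, 0.40, -0.17 and -0.01 in miR-126-/- mice, against 0.16, 0.20, 0.70 and 0.80 in miR-126+/+ mice. Here 3 of 4 miR-126-/- arteries lay below every miR-126+/+ artery, and the difference was -0.44 ± 0.20 (SE). Its limma adjusted p was 0.520 when each probe was tested on its own. Over the 8 arrays, with each genotype centred on its own mean, the probes correlated with r = 0.176, and with r = -0.587 without miR-126+/+ 3.

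Btg2, an immediate early gene and target of p53 that restrains the cell cycle, did not separate the genotypes. Its level was 1.58, 1.45, 1.07 and 1.25 in the 4 miR-126-/- mice, against 0.94, 1.02, 1.57 and 1.72 in the 4 miR-126+/+ mice. The miR-126+/+ arteries formed a low pair and a high pair, with the miR-126-/- arteries between and beside them. The difference was 0.03 ± 0.21 (SE), with a 95% interval from -0.45 to 0.50 that leaves room for a change in either direction. The probe lies at chr1:135972094-135972153 on the minus strand of mm9.

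Whether Btg2 follows the immediate early genes across mice is a separate question from the genotype contrast. These genes, such as Fos, Jun and Egr1, respond within minutes to growth factors, injury and tissue handling, and 18 of them were measured. Their mean, each gene centred over the 8 arrays, was -0.042, 0.158, -0.226 and -0.126 in miR-126-/- mice, against -0.055, -0.125, 0.268 and 0.148 in miR-126+/+ mice. Btg2 correlated with it at Pearson r = 0.734 (exact permutation p = 0.0476, two-sided, n = 8) and Spearman rho = 0.595 (exact permutation p = 0.132). The rank correlation therefore did not pass. The correlation over all 8 arrays includes differences between the genotypes, and with each genotype centred on its own mean r was 0.81. Within the genotypes r was 0.728 in miR-126-/- and 0.881 in miR-126+/+ arteries, each over 4 arrays only. Without the 2 arrays farthest from the median, miR-126-/- 2 and miR-126+/+ 3, r was 0.732 and rho 0.486 (exact permutation p = 0.0778 and 0.356, n = 6), so the size of r was kept while its p was not under 0.05. This was the 1 relation of its kind that was tested. The p also was 0.05 or more in 6 of the 8 settings that left out 1 array. Single genes ranged from r = -0.356 for Klf4 to 0.825 for Ccn1, a matricellular growth regulator, with the nuclear receptor gene Nr4a1 at 0.756 and the MAP kinase phosphatase gene Dusp1 at 0.681. Of the 18 genes 9 had r of 0.3 or below, among them Junb (0.189), Egr2 (0.058), Socs3 (0.012) and Atf3 (-0.044). All 8 arrays share these probes' labelling and scaling.

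**Figure D3:**
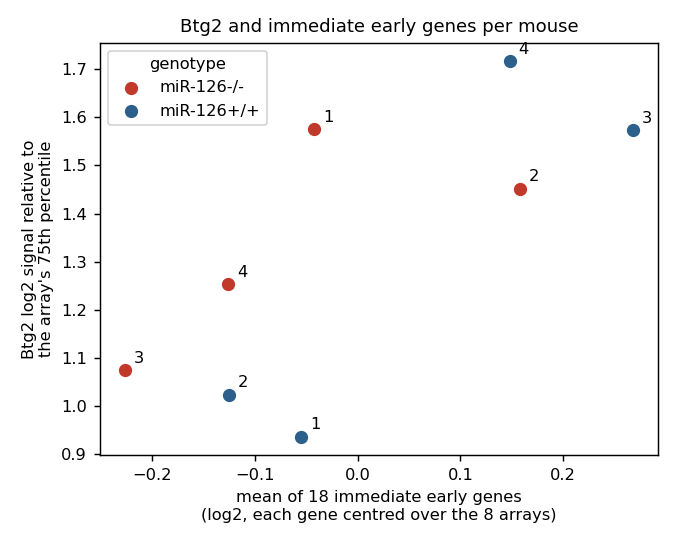
Btg2 log2 level (75th percentile of each array at 0) against the mean of 18 immediate early genes (log2, each centred over the 8 arrays), 1 point per mouse; red points are miR-126-/- and blue points miR-126+/+ arteries, with mouse numbers. Btg2 is high where the mean is high, in miR-126+/+ 3 and 4 and miR-126-/- 2, and miR-126-/- 1 stands above its neighbours.

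Between the genotypes no immediate early gene passed the test. Of 18 tested, 4 were higher in miR-126-/- arteries and 14 lower, with a median difference of -0.09 against -0.005 over all genes. In limma 0 of them had an adjusted p under 0.05 (0 at an unadjusted p under 0.05, where 10.2% of all genes had one).

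Btg3 and Btg4 are more distant relatives of the family. The Btg3 probe was at 3.72, 3.92, 3.85 and 3.93 in miR-126-/- mice, against 4.00, 3.84, 4.37 and 3.73 in miR-126+/+ mice. The groups overlapped, with miR-126+/+ 3 highest, and the difference was -0.13 ± 0.15 (SE; 95% interval -0.46 to 0.21), or 0.0023 ± 0.10 without that array. The files place this probe on chromosome 17, at chr17:50839065-50839124 of mm9, whereas RefSeq places Btg3 on chromosome 16, so which locus it reads is uncertain. Btg4, known for its part in clearing maternal messages from the mouse oocyte, was not well above background on any of the 8 arrays and was not among the genes tested here. Its probe lies at chr9:50927671-50927730 on the plus strand of mm9.

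The deadenylase genes Cnot7 and Cnot8 differed by less than their spread. Cnot7 was at -2.52, -2.60, -2.17 and -2.51 in miR-126-/- mice, against -2.14, -2.28, -2.27 and -2.62 in miR-126+/+ mice. The ranges nearly coincided, and the difference was -0.12 ± 0.14 (SE; 95% interval -0.45 to 0.20). Cnot8 was at 2.54, 2.81, 2.66 and 2.01 in miR-126-/- mice, against 2.63, 2.64, 2.82 and 2.68 in miR-126+/+ mice. Array miR-126-/- 4 lay lowest and the miR-126+/+ arteries close together. The difference was -0.19 ± 0.17 (SE; 95% interval -0.58 to 0.21), and without miR-126-/- 4 it was -0.02 ± 0.11, so it rested on that array. The Cnot7 probe lies at chr8:41578761-41578820 on the minus strand and the Cnot8 probe at chr11:57931953-57932012 on the plus strand of mm9.

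From mouse to mouse some members ran together and others opposite to each other. Of 21 pairs of the 7 genes, with each genotype centred on its own mean over the 8 arrays, Tob1 and Tob2 correlated at r = 0.29, and at 0.439 without miR-126+/+ 3. Tob1 and Btg2 had r = -0.048, and 0.73 without that array. Tob1 ran opposite to the Btg3 probe, whose locus is uncertain (r = -0.987, and -0.948 without miR-126+/+ 3). Tob1 also ran opposite to the first Btg1 probe (r = -0.924, and -0.539 without that array). Tob2 ran opposite to Cnot7 (r = -0.939, and -0.938 without it) and with Btg2 (r = 0.715, and 0.826 without it). The first Btg1 probe and the Btg3 probe ran together (r = 0.925, and 0.654 without it), a relation that rested in good part on miR-126+/+ 3. Before scaling, the Btg3 probe read 11532.3, 11802.1, 12785.5 and 11455.3 intensity units in the 4 miR-126+/+ mice. The 75th percentiles of those arrays were 721.0, 826.6, 619.7 and 864.6, so the scaled Btg3 levels there ran in the reverse order of the percentiles. How far the scaling carries the correlations of Btg3 with Tob1 and Btg1 was not tested. These are descriptions over arrays that share labelling and scaling.

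Genes most like each member were found in the same way among 15033 named genes. Nearest to Tob1 were the transmembrane channel-like gene Tmc5 (r = 0.985), the neurotrophic factor gene Cdnf (0.979), the potassium channel gene Kcng4 (0.975), Dtx1 (0.970), which encodes a ubiquitin ligase of the Notch pathway, and the choline transporter gene Slc44a1 (0.969). Nearest to Tob2 were Sgca (0.981), which encodes a sarcoglycan of striated muscle, Icam5 (0.966), Psmc3ip (0.963), Cuedc1 (0.960) and Fam118a (0.952). Nearest to Btg1 were Susd6 (0.986), Cdk2ap2 (0.984), Pold4 (0.984), Khsrp (0.983) and the cytokine receptor kinase gene Jak2 (0.980), which without miR-126+/+ 3 had r between 0.789 and 0.863. Nearest to Btg2 were Sh2d6 (0.973), Timd4 (0.965), Armcx6 (0.959), Cyp2d26 (0.958) and Wdr11 (0.953). A search over so many genes with 8 arrays picks high values by construction.

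The other parts of the deadenylation machinery did not separate the genotypes as lists. Of 10 other CCR4-NOT subunits 5 were higher in miR-126-/- arteries and 5 lower (median difference -0.002), and in limma 0 had an adjusted p under 0.05 (0 at an unadjusted p under 0.05). Those of smallest unadjusted p were the subunit genes Cnot10 (0.23 ± 0.15) and Cnot9 (-0.20 ± 0.15) and Tnks1bp1 (0.22 ± 0.22), which encodes a protein bound to the complex. Of 10 other deadenylases and poly(A)-binding proteins 6 were higher and 4 lower (median 0.004), 0 had an adjusted p under 0.05 and 1 an unadjusted p under 0.05, a share near the 10.2% of all genes. That gene was Pabpc4, a cytoplasmic poly(A)-binding protein, at 1.70 to 1.78 in miR-126-/- mice, against 1.35 to 1.65 in miR-126+/+ mice. Its groups did not overlap, as for 6.41% of all genes, and the difference of 0.23 ± 0.088 (SE) had a limma adjusted p of 0.435. The deadenylase genes Toe1 (-0.12 ± 0.082) and Angel2 (0.11 ± 0.089) came next.

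RNA-binding proteins and adaptors that recruit CCR4-NOT to chosen messages were higher for 11 and lower for 7 of 18 genes (median 0.05). In limma 0 had an adjusted p under 0.05 and 1 an unadjusted p under 0.05, where 10.2% of all genes had one. That gene was Cpeb3, a cytoplasmic polyadenylation element binding protein to which Tob is reported to bind, at 0.66, 0.90, 0.89 and 0.69 in miR-126-/- mice, against 0.44, 0.50, 0.35 and 0.50 in miR-126+/+ mice. Its groups did not overlap either, and the difference of 0.34 ± 0.092 (SE) had a limma adjusted p of 0.258. Nanos1, a translational repressor, gave -0.72 ± 0.43 and was well above background on 7 of 8 arrays, and Tnrc6b, an Argonaute partner in microRNA silencing, gave 0.13 ± 0.083.

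Reported partners and regulators of Tob and Btg proteins were higher for 4 and lower for 11 of 15 genes, with a median difference of -0.17 against -0.005 over all genes, of which 48.9% were higher. In limma 0 had an adjusted p under 0.05 and 1 of the 15 an unadjusted p under 0.05, again below the 10.2% of all genes. That gene was Ccnd1, the cyclin of the G1 phase whose promoter Tob and Btg proteins are reported to repress. Ccnd1 was at 2.80, 2.43, 2.51 and 1.89 in miR-126-/- mice, against 3.69, 3.45, 2.74 and 2.55 in miR-126+/+ mice. The groups overlapped, and the difference of -0.70 ± 0.30 (SE) had a limma adjusted p of 0.480. The kinase gene Rps6ka1, whose product phosphorylates Tob1 in human cells, gave -0.26 ± 0.14, and the transcription factor gene Foxo1 gave 0.23 ± 0.14.

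**Figure D4:**
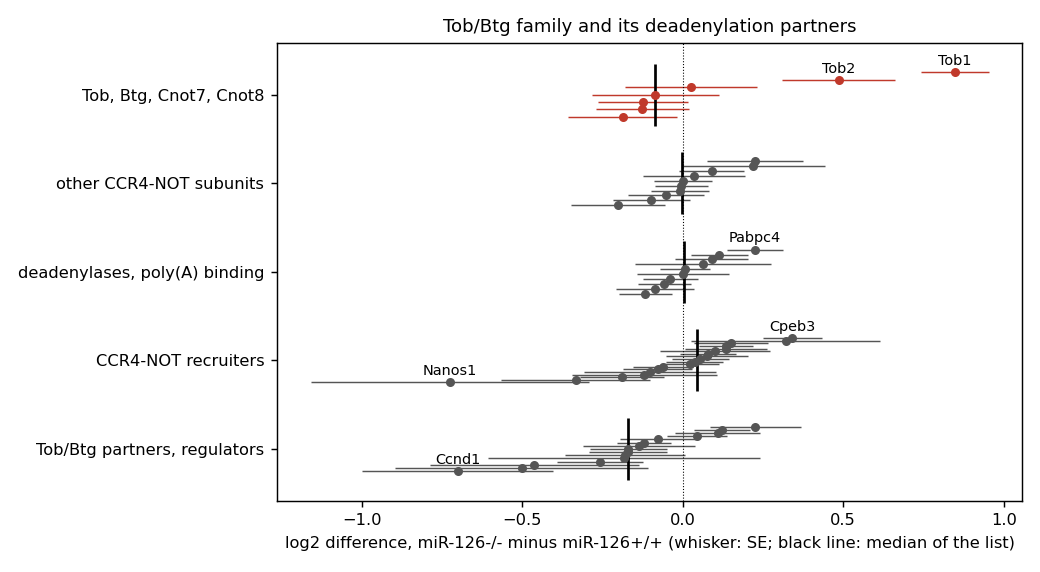
Log2 difference, miR-126-/- minus miR-126+/+, of each tested gene (points, whiskers SE) in the Tob, Btg, Cnot7 and Cnot8 genes (red) and in 4 lists of their partners (grey), with the median of each list as a black line. Tob1 and Tob2 lie furthest right, and the medians of the 4 other lists lie between -0.17 and 0.05.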

How the data were processed

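RNA of wire-injured carotid arteries from 8 mice was hybridised to 1-colour Agilent mouse arrays (100 ng of Cy3-labelled RNA each, per the labels). The values are processed signals, an intensity per spot after background subtraction, made with Feature Extraction 10.7.3.1 per the file headers. The deposited value table holds unscaled intensities, within 0.1 log2 units of the scanner values for 99.9% to 99.95% of probes per array.

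Control and outlier spots were left out, the spots of a probe were averaged, and log2 values were set relative to each array's 75th percentile of processed signal over noncontrol spots. This percentile over spots was chosen after values of the 8 genes had been seen. The percentile over probes with spots averaged, added as an alternative after seeing the data, gave a Tob1 difference of 0.86 ± 0.10 (SE, limma adjusted p = 0.04996). Probes well above background on at least 3 of 4 arrays of a genotype entered (32481 probes), and a gene was its brightest probe (23828 genes). RefSeq accessions (GRCm38.p6) named 26413 probes and changed 3093 symbols. Genotypes were compared with limma 3.58.1 (R 4.3.3; lmFit, eBayes, two-sided, Benjamini-Hochberg over all genes, threshold 0.05). The relation of Btg2 to immediate early genes was tested by exact permutation of pairings. The fit was tested on simulated data.

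The genes, the lists and the tests were chosen with earlier results of these data known. The naming rule took the 8 genes, up to 3 genes per partner list by unadjusted p, the 5 genes most like Tob1, Tob2, Btg1 and Btg2, and Egfl7. Values of markers and of single immediate early genes were named outside it, after being seen. Alternatives covered normexp background correction (offset 50), quantile normalization, other percentiles, the deposited table, looser and stricter dim-signal filters, averaging over the probes of a gene, each probe alone, an intensity trend, array weights, a replicate block, adipocyte or skeletal muscle marker means as covariates, each array left out in turn and, added after seeing the data, leaving out the spots of a dim area of array miR-126-/- 4.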

Additional observations from a re-analysis of the deposited data

Results flagged for a closer look

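The 40 groups of 4 arrays tested were formed by the 8 probes of the 7 tested members and by the named partner genes. Of these groups 2 held an array far from the other 3, where chance alone gives about 1 in 20. Foxo1 was at 2.62 in miR-126-/- 1, against 2.92 to 2.97 in the other miR-126-/- arteries. Cnot10 was at 0.15 in miR-126+/+ 4, against 0.70 to 0.78 in the other miR-126+/+ arteries.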

How the results depend on the processing

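The Tob1 call depended on the setting. The number of the 7 genes called, 1 as reported, stayed 1 with normexp, with an intensity trend, with array weights, without the spots of the dim area, with the percentile over averaged probes and without miR-126+/+ 4. It was 0 in the other 17 of 23 alternatives, among them quantile normalization, the percentile over probes above background, the deposited table, both other filters, the mean of probes, each probe alone and both covariates, and it ran from 0 to 1 when 1 array was left out. The Tob1 adjusted p was then at least 0.0503 (the deposited table), and 0.0672 to 0.180 without each of the other 7 arrays. The number of genes called, 27 as reported, was 11 with quantile normalization, 12 with the deposited table, 11 with no filter, 6 with the stricter filter, 10 with the mean of probes, 13 with each probe alone, 67 with array weights and 8 with the skeletal muscle covariate. In limma it was 0 with the adipocyte covariate (1141 at an unadjusted p under 0.05). It ran from 0 without miR-126-/- 2 (1920 at an unadjusted p under 0.05) to 51 without miR-126+/+ 4. The number of probes called, 13 as reported, was 39 with normexp, 7 with the stricter filter, 8 with an intensity trend, 40 with array weights, 0 with the adipocyte covariate, 1 with the skeletal muscle covariate and 0 to 52 with 1 array left out. The labels do not say whether replicate numbers pair the samples. Deviations of same-numbered arrays correlated at 0.205, -0.285, -0.045 and 0.007, which shows no pairing but cannot exclude one. With the replicate number as a block limma called 0 genes (2180 at an unadjusted p under 0.05), 0 of the 7 genes and 0 probes, and Tob1 had an adjusted p of 0.179.

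The Pearson r of Btg2 with the immediate early genes was 0.692 to 0.822 with 1 array left out, where its exact permutation p was 0.0397 to 0.0972, and 0.732 without the 2 farthest arrays. It was 0.739 with quantile normalization and 0.855 with normexp (exact permutation p = 0.0494 and 0.0128). Among uncalled members the sign of Btg1, Btg2, Btg3, Cnot7 and Cnot8 was not settled. Tob2 was above 0 in 22 of 22 settings (0.33 to 0.64), several of which leave its difference as it is. With the adipocyte covariate Btg1, Btg3, Cnot7 and Cnot8 differed by 0.26, 0.13, 0.10 and 0.0028, against reported values below 0, and without miR-126+/+ 3 Btg1 and Btg3 differed by 0.12 and 0.0023. Btg2 was below 0 in 6 of 22 settings (lowest -0.14, normexp), and Btg1 was at -0.26 with the mean of probes. None of these was called in any setting. The cause of these shifts was not tested. The median of all genes moved by at most 0.031. With no filter on dim probes Btg4 entered too, so that 8 members were tested, and 0 were called. Nothing is read from the difference of a probe as dim as that of Btg4.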

Other observations

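A probe for Btg1c, a relative of Btg1, followed the first Btg1 probe from mouse to mouse. It was at -0.393, -0.339, -0.384 and -0.188 in miR-126-/- mice, against -0.563, -0.262, 0.431 and -0.386 in miR-126+/+ mice, and was well above background on all 8 arrays. Array miR-126+/+ 3 was highest for both, and the genotype-centred correlation of 0.936 was 0.431 without that array. Whether either probe also binds the other's transcript was not tested.

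The array also carries 5 probes named by an interval on the strand opposite to Btg1, an interval that contains the second Btg1 probe. Whether these probes read a single transcript was not tested. The brightest of them was at 0.347, 0.890, 0.768 and 0.885 in miR-126-/- mice, against 0.942, 1.157, 1.169 and 1.135 in miR-126+/+ mice. All 4 miR-126-/- values lay below all 4 miR-126+/+ values (mean 0.723 against 1.101), as was so in this direction for 2.56% of all genes. The other 4 probes did not separate the genotypes in this way: 1 was not well above background on any array, and the genotypes overlapped in the other 3, with means of -3.654 against -3.312, -3.946 against -3.749 and -4.200 against -4.332.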
